A study of Mus musculus with 8 samples.

Results

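The genes that make cholesterol and fatty acids, with the regulators and transporters of sterols, were followed in tdTomato-positive cells of the developing mouse brain. The set has 32 genes, taken by matching their symbols to the rows of the count tables, and all 32 were found among 53507 gene rows. By role they are 7 enzymes of the mevalonate arm, 11 of the squalene and sterol arm, 4 regulators of the SREBP system, 5 genes of the liver X receptors and sterol transport, and 5 enzymes of fatty acid synthesis. All 32 also passed the filter on low counts, which kept 19936 genes. RNA was sequenced in 8 libraries, 2 per group. The groups were embryos at E13, embryos at E15, pups at P12 reared in normal air (normoxia), and pups at P12 that had been kept at 10% O2 for 8 days, from P3 to P11 (hypoxia). The labels give the embryonic cells as wt, and control and hypoxic mothers were swapped as foster mothers at P6 and P9. tdTomato, a red fluorescent protein, lets marked cells be sorted; the labels call these cells progenitors but name neither the allele and promoter that drive it nor the animals behind each replicate. P-values therefore measure the spread between libraries, which may be technical.

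Cholesterol is built from acetyl-CoA. The mevalonate arm makes isoprenoid units, which are joined into squalene, closed into lanosterol and trimmed to cholesterol by the sterol arm. Fatty acid synthesis starts from the same acetyl-CoA, which Acly releases from citrate. SREBP transcription factors switch both programmes on when membrane sterols are low: Scap carries them to the Golgi for activation, and Insig1 holds Scap back when sterols are plentiful. Liver X receptors respond to oxidised sterols and switch on the exporters Abca1 and Abcg1. The brain makes its own cholesterol, because lipoproteins of the blood do not cross the blood-brain barrier; after birth glia supply much of it to neurons and to myelin.

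Promoter sequence was looked at first, since many of these genes are known to share control by SREBP, which binds beside the factors that recognise CCAAT boxes. RefSeq windows (GRCm38.p6, 250 bases before to 50 after the start) were available for 25 of the 32 members; Fdps, Fdft1, Sqle, Stard4, Abcg1, Scd1 and Scd2 were not matched. A CCAAT box (CCAAT, either strand) lay in a window of 19 of the 25 members, against 41.1% of all 27025 genes with a window. The E-box CACGTG lay in 6 of 25 (Hsd17b7, Sc5d, Dhcr7, Insig1, Scap and Abca1), against 8.09% of genes. The sterol regulatory element letters TCACNCCAC lay in 1 of 25, Hmgcs1, against 1.44% of genes. An E-box can share bases with an end of the sterol regulatory element, but no matches overlap in the sequences printed here, and a match describes the window only. The 250 bases before the start are shown for 4 members whose RNA was higher at P12 after hypoxia than in the embryo, because together they hold every motif searched; matches are in capitals, and a match on the other strand reads as its reverse complement (ATTGG for CCAAT).
Hmgcs1 (chr13:119690101-119690350, plus strand): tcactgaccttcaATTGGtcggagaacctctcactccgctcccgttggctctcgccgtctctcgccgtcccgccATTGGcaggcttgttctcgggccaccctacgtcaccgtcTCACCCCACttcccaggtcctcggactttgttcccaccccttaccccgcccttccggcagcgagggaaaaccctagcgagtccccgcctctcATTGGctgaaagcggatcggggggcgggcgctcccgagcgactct
Msmo1 (chr8:64733579-64733828, minus strand): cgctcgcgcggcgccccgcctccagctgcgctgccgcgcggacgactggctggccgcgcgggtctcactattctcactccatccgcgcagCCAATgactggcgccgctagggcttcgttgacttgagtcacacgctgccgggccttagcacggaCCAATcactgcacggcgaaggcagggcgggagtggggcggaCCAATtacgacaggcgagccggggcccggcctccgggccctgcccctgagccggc
Insig1 (chr5:28071162-28071411, plus strand): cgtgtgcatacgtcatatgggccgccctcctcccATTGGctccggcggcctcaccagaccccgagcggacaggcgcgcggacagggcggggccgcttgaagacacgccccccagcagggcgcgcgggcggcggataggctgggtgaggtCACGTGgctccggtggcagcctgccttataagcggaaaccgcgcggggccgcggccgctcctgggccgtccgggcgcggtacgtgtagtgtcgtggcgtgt
Sc5d (chr9:42264301-42264550, minus strand): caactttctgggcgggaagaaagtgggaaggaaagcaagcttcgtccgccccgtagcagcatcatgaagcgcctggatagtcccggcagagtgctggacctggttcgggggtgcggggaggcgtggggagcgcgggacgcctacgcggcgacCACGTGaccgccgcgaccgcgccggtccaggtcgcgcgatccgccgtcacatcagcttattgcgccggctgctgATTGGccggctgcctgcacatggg
Hmgcs1 held the sterol regulatory element 137 bases before its start, with CCAAT boxes on both sides of it. Msmo1 held 3 CCAAT boxes and neither other motif. Insig1 and Sc5d each held 1 E-box and 1 CCAAT box. Acly, whose RNA was lower at P12, held 1 CCAAT box, 38 bases after its start. It held none of the 3 motifs in the 250 bases before that start. Other members went the other way. Nr1h2, called higher in hypoxia against the embryo, held none of the 3 motifs in its window. Lss, lower than the embryo in both hypoxic libraries, held a CCAAT box 62 bases before its start. Whether motifs go with the direction of change was not tested.

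**Figure D1:**
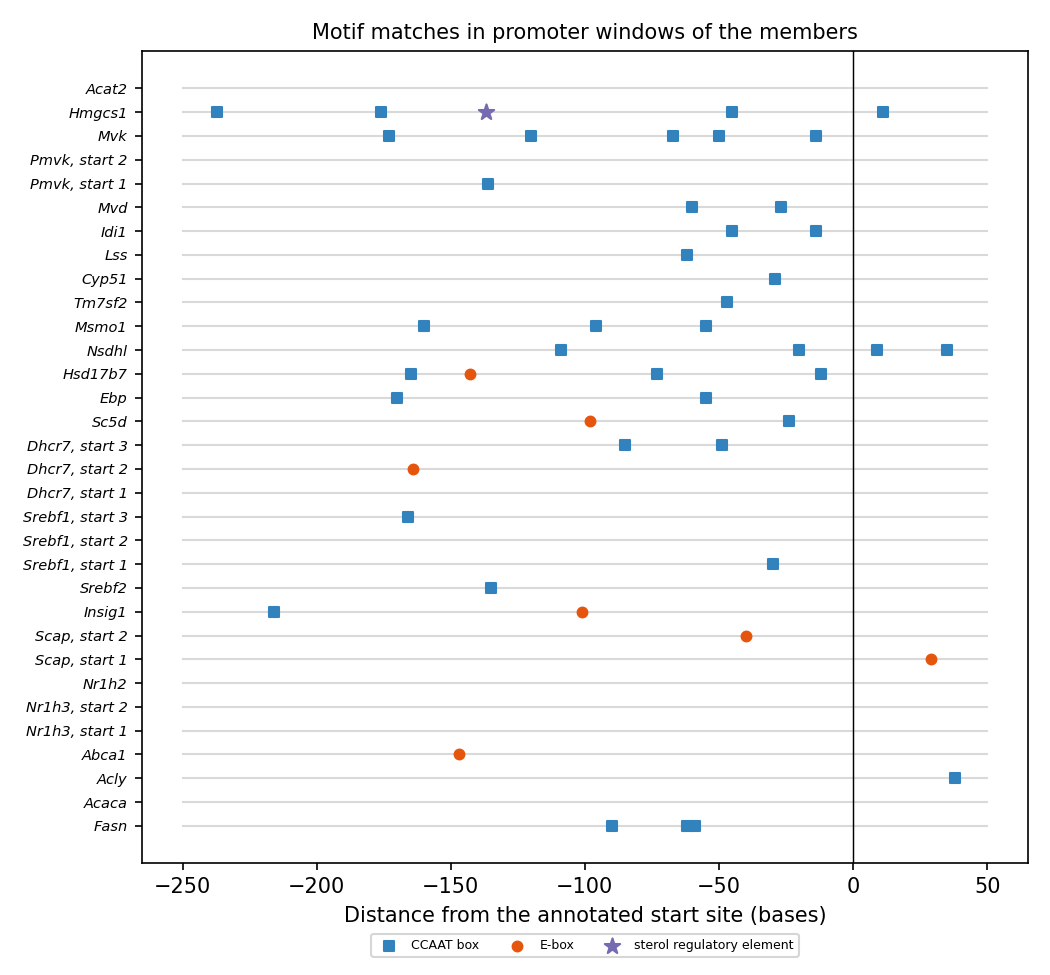
Matches to the CCAAT box, the E-box and the sterol regulatory element in the RefSeq promoter windows of 25 members; each grey line is 1 annotated start and the x axis gives bases from it. CCAAT boxes lie in windows of 19 members, and the 1 sterol regulatory element is in Hmgcs1.

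The libraries held 36252027 to 47084796 counts in gene rows, and members with at least 10 counts numbered 31 or 32 in the embryonic libraries, 30 and 32 in normoxia and 30 and 26 in hypoxia. Values are CPM, counts per mega-count of TMM-scaled library size, given for replicate 1 and then replicate 2. Replicates differed more at P12 than in the embryo: the median member differed between replicates by 0.17 at E13, 0.156 at E15, 1.09 in normoxia and 1.37 in hypoxia on the log2(CPM + 1) scale, against 0.193, 0.171, 0.672 and 0.631 over all tested genes. Of 11973 genes with at least 100 counts in every embryonic library, 14.8% and 14.5% had 3 counts or fewer in the hypoxic libraries and 7.83% and 5.10% in the normoxic ones. Such members were Lss and Stard4 in hypoxic replicate 1, Mvd, Fdps and Ebp in hypoxic replicate 2, and Mvd and Nsdhl in normoxic replicate 1. Summed markers of astrocytes (10 genes) were 37.2 to 64.4 CPM in the embryo and 11260 to 13920 CPM at P12, with Aldh1l1 and Gjb6 at 0 in all embryonic libraries. Oligodendrocyte progenitor markers (8 genes) summed to at most 2.22 CPM in the embryo, 385 to 502 CPM in normoxia and 990.3 to 1704 CPM in hypoxia. Neuronal markers (8 genes) summed to 1884 to 2463 CPM in the embryo, 514 to 532 CPM in normoxia and 241 to 473 CPM in hypoxia. In hypoxia nearly all of that sum was Map2 and Tubb3, and the other 6 neuronal markers (Snap25, Syp, Stmn2, Rbfox3, Syt1 and Ina) summed to 0.942 and 7.88 CPM there against 293 to 377 CPM in normoxia, each lower in both hypoxic libraries than in both normoxic ones. All 8 radial glia and progenitor markers had at least 10 counts in every library. Vascular markers (7 genes) summed to 5.63 to 12.6 CPM in the embryo, 1979 to 2523 CPM in normoxia and 1022 to 1278 CPM in hypoxia. Most of the P12 sum was Rgs5, a pericyte gene, at 0 in the embryo, 2500 and 1910 CPM in normoxia and 1240 and 1020 CPM in hypoxia, while endothelial Cldn5, Pecam1 and Cdh5 were at 0 in every P12 library. In bulk RNA, fewer cells of a type and less RNA per cell cannot be told apart, and the part that cell make-up and lost genes play in the results was not tested.

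**Figure D2:**
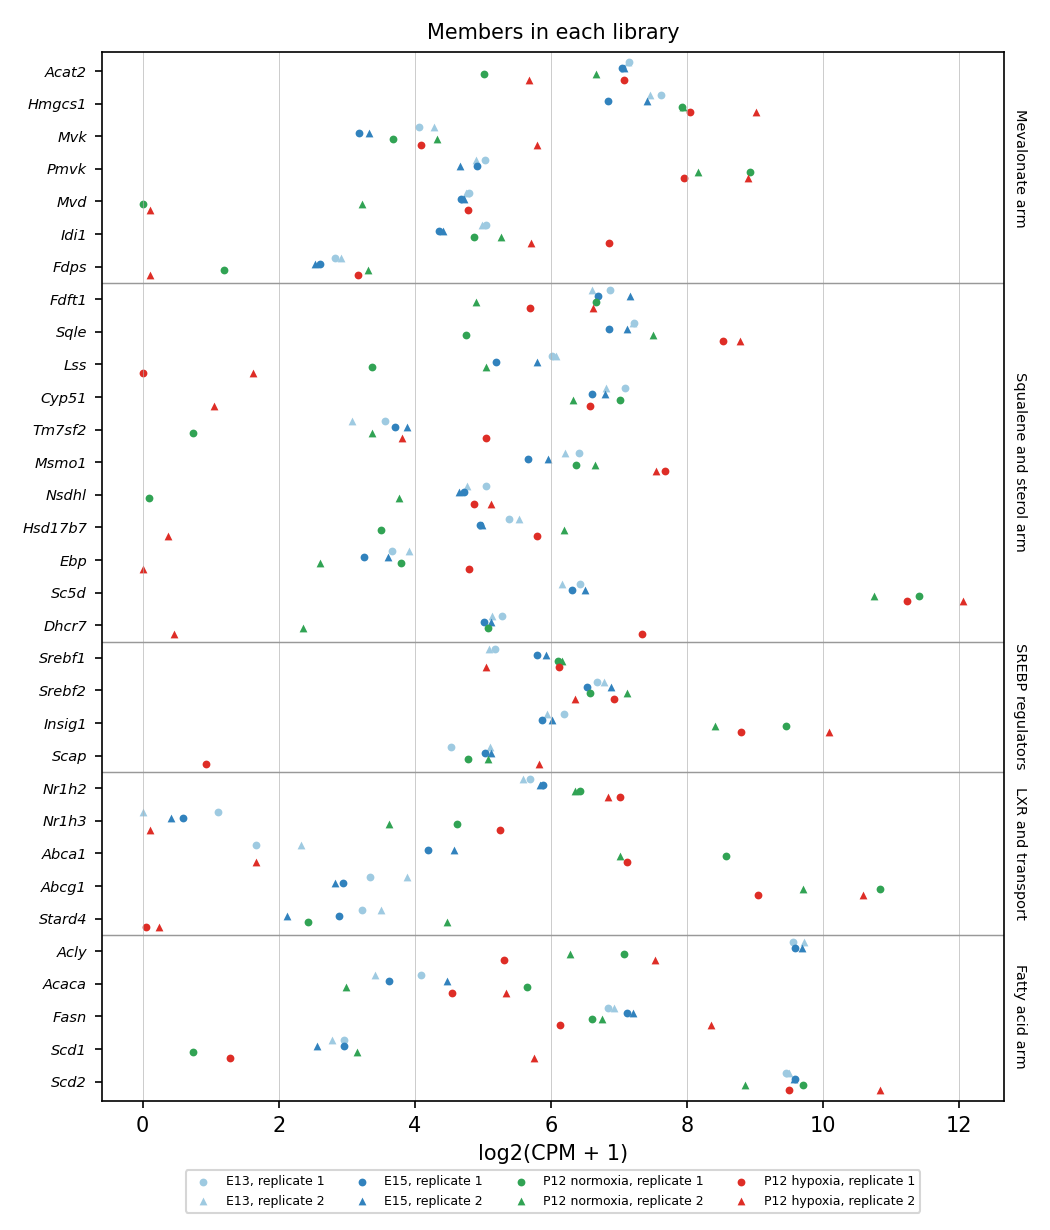
Level of each of the 32 members in each of the 8 libraries, as log2(CPM + 1), grouped by role; colours give the group and symbols the replicate. Embryonic replicates lie close together, while at P12 replicates of many members lie far apart, and Sc5d, Insig1, Pmvk and Abcg1 stand above the embryo in all 4 P12 libraries.

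The first question was how the genes stood at P12 against the embryo, taken as the mean of E13 and E15. The shift was uneven along the pathway. Pmvk, Sc5d, Insig1 and Abcg1 rose in both P12 groups and Acly fell in both, while the other members passed that test in hypoxia only or in neither. In normoxia 4 of 32 members were called higher and 1 lower at an adjusted p under 0.05 (edgeR quasi-likelihood test, Benjamini-Hochberg adjustment), against 12.1% of all tested genes called higher and 5.68% lower, so the members' share was near that of all genes. In hypoxia 8 of 32 were called higher and 2 lower, against 13.2% and 12.9% of all tested genes. Both comparisons use the same embryonic libraries, so their values are set side by side and not as separate support, and whether the normoxic and hypoxic shifts differ is the hypoxia comparison further on. The median member stood at a log2 fold change of 0.06 in normoxia and 0.92 in hypoxia, beside -0.04 and -0.43 over all tested genes. Scaling by total counts in place of TMM moved all genes down together, to medians of -0.85 and -1.32, and the members' medians to -0.74 and -0.04, so the sign of the members' medians turned negative; relative to all genes the members still stood higher. Under that scaling 6 members were called in hypoxia in place of 10, against 26.8% of all genes. DESeq2 called 9 members in normoxia and 15 in hypoxia, against 36.4% and 45.1% of all genes. Leaving out any 1 embryonic library left 3 members called in normoxia and 4 in hypoxia, against 4.2% to 4.42% and 7.03% to 7.3% of all genes, and leaving out normoxic replicate 1 left 3 in normoxia, against 7.84%. Without hypoxic replicate 1, 16 members were called in hypoxia, against 30.6% of all genes, and without hypoxic replicate 2 it was 13, against 25.4%. The hypoxic median was 0.30 without hypoxic replicate 1 and 0.60 without hypoxic replicate 2, beside -1.68 and -0.995 over all genes tested there.

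**Figure D3:**
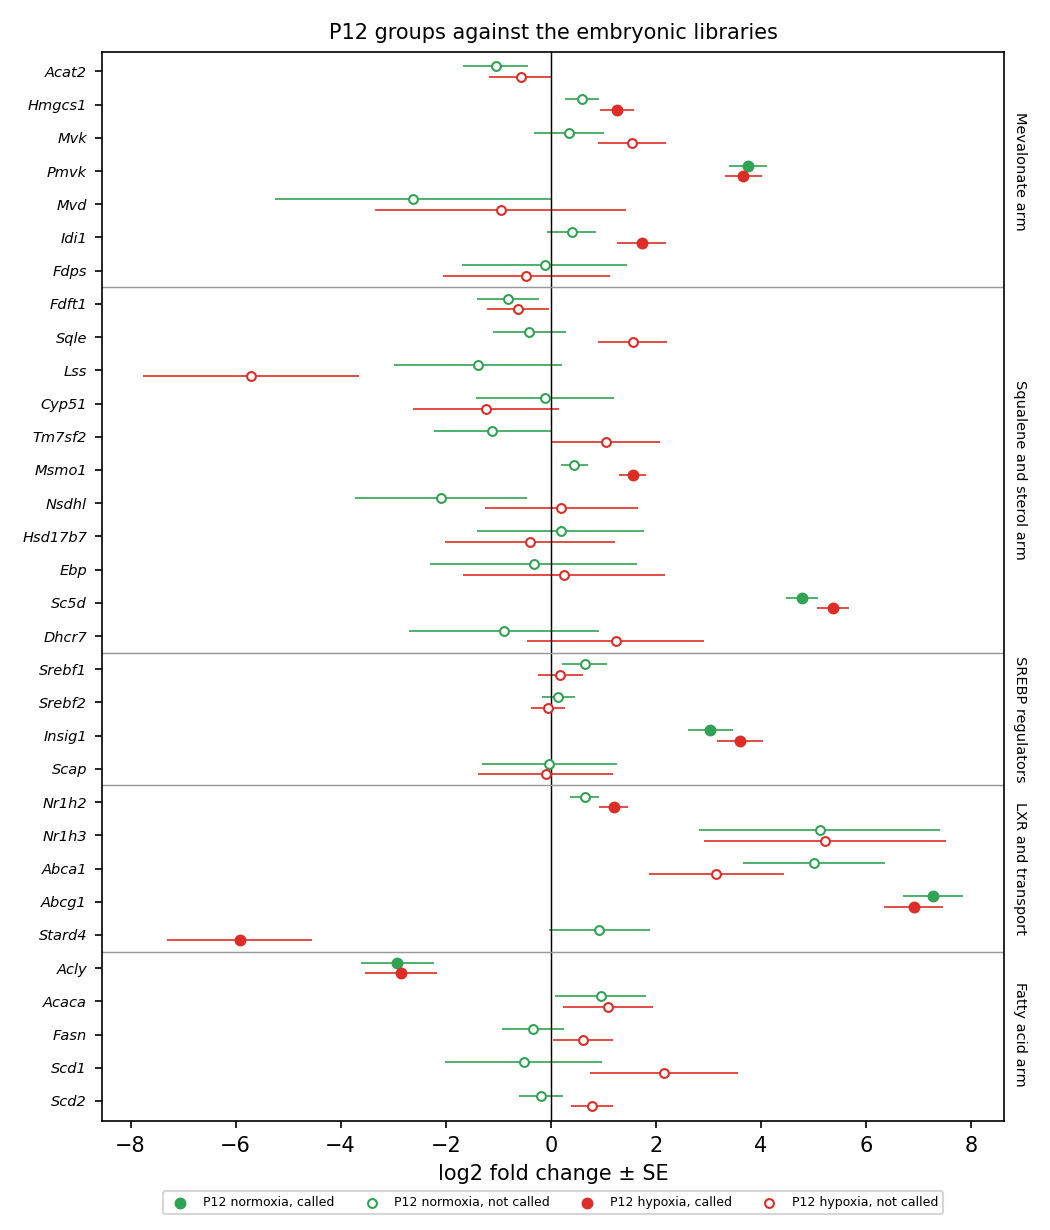
Log2 fold change of each member in P12 normoxia (green) and P12 hypoxia (red) against the mean of E13 and E15, with its SE; filled points passed an adjusted p of 0.05. Pmvk, Sc5d, Insig1 and Abcg1 lie to the right and Acly to the left in both groups, whereas Msmo1, Hmgcs1, Idi1, Nr1h2 and Stard4 are filled in hypoxia only.

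In the mevalonate arm, Pmvk, the kinase that adds the second phosphate to mevalonate (chr3:89454541-89469013 in GRCm38), stood apart. Its level was 31.8 and 28.8 CPM at E13, 29.2 and 24.4 at E15, 483 and 286 in normoxia, and 247 and 477 in hypoxia. Every P12 library lay above every embryonic one, and the hypoxic and normoxic values overlapped. The log2 fold change was 3.75 (SE 0.36, adjusted p = 0.00196) in normoxia and 3.67 (SE 0.36, adjusted p = 0.00182) in hypoxia, and both calls held in all 16 alternative analyses. Between the P12 groups the log2 difference was -0.09 (SE 0.42, adjusted p = 1.0).

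Hmgcs1, the synthase that makes HMG-CoA and a classical SREBP target, was at 195 and 175 CPM at E13, 114 and 168 at E15, 242 and 246 in normoxia and 262 and 516 in hypoxia. All P12 libraries lay above all embryonic ones, and both hypoxic libraries above both normoxic ones. It rose by 1.27 on the log2 scale in hypoxia against the embryo (SE 0.32, adjusted p = 0.0366), against 0.59 in normoxia (SE 0.33, adjusted p = 0.259). The hypoxic call held in 5 of 16 alternatives, and the log2 fold change was 0.68 without hypoxic replicate 2 (adjusted p = 0.122) and 0.29 under total-count scaling (adjusted p = 0.47). It was also lost on leaving out either normoxic library (adjusted p = 0.0589 and 0.0561) or any 1 of the embryonic ones (0.0988 to 0.148), which leaves a group with 1 library.

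Idi1, the isomerase that supplies the reactive isoprenoid unit, was at 32.04 and 30.7 CPM at E13, 19.4 and 20.2 at E15, 28.1 and 37.5 in normoxia, and 114 and 51.1 in hypoxia. The hypoxic libraries were the highest of all, and normoxia overlapped E13. It rose by 1.73 in log2 in hypoxia against the embryo (SE 0.46, adjusted p = 0.0412) and stood at 0.40 in normoxia (SE 0.47, adjusted p = 0.601). That call was lost without hypoxic replicate 1 (1.04, adjusted p = 0.0687), without any 1 embryonic library (adjusted p = 0.174 to 0.181) and under total-count scaling (0.86, adjusted p = 0.26), and held in 7 of 16 alternatives.

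The other mevalonate enzymes were not called by edgeR in any comparison with all 8 libraries. Acat2, which joins acetyl-CoA units and has a near copy in Acat3 with which reads may be shared, was at 131 to 141 CPM in the embryo and at 31.4 to 133 CPM over the P12 libraries. Mvk, the first kinase acting on mevalonate, was at 8.05 to 18.5 CPM in the embryo, 11.8 and 19.0 in normoxia, and 16.04 and 54.5 in hypoxia. Mvk was called higher in hypoxia against the embryo by DESeq2 (1.82, adjusted p = 0.0142) and by edgeR without hypoxic replicate 1 (2.18, adjusted p = 0.0174), against 1.55 (adjusted p = 0.129) with all libraries. Mvd, the decarboxylase that follows Pmvk, had steady levels of 24.5 to 26.8 CPM in the embryo, but 0 and 8.34 CPM in normoxia and 26.4 and 0.074 CPM in hypoxia. Fdps, which builds farnesyl diphosphate, had 4.76 to 6.505 CPM in the embryo, 1.30 and 8.96 in normoxia and 8.01 and 0.074 in hypoxia. In each P12 group 1 replicate of Mvd held 0 or 2 counts while the other did not, hypoxic replicate 2 also held 2 counts of Fdps, and the SEs of both genes in the comparisons with P12 were 1.57 to 2.72 on the log2 scale. Fdps and Mvd overlap the annotated genes Gm43738 and Gm20388, and the counting of shared reads is not stated, so their counts are uncertain. Other members overlap annotated genes too, among them Hmgcs1 with Gm48342 (6190 bases) and Acaca with Gm11437 (19126 bases), both on the opposite strand.

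In the sterol arm the largest called shift was that of Sc5d, the desaturase acting near the end of the pathway (chr9:42251595-42264256 in GRCm38). It was at 85.1 and 70.6 CPM at E13, 78.6 and 89.0 at E15, 2714 and 1717 in normoxia and 2406 and 4262 in hypoxia. All P12 libraries were above all embryonic ones, and the P12 groups overlapped. Sc5d rose by 4.78 in log2 in normoxia (SE 0.30, adjusted p = 0.000514) and by 5.37 in hypoxia (SE 0.31, adjusted p = 0.000403), in 16 of 16 alternatives for each; under total-count scaling the shifts were 3.92 and 4.40. Per kilobase of exon, its mean level went from 16.6 CPM in the embryo to 455 in normoxia and 685 in hypoxia, whereas Dhcr7, the reductase that takes the product of Sc5d, had means of 5.89, 3.17 and 13.9 CPM per kilobase. The P12 means of Dhcr7 join replicates that lay far apart, 5.63 and 0.706 in normoxia and 27.65 and 0.064 in hypoxia.

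Msmo1, which starts removal of the methyl groups of lanosterol, was at 83.9 and 72.9 CPM at E13, 49.9 and 61.3 at E15, 81.2 and 99.1 in normoxia, and 203 and 186 in hypoxia. The hypoxic libraries were the highest and close to each other, and normoxia overlapped E13. It rose by 1.56 in hypoxia against the embryo (log2, SE 0.26, adjusted p = 0.0105), and stood at 0.45 in normoxia (SE 0.27, adjusted p = 0.285). The call held in 11 of 16 alternatives; it was lost on leaving out any 1 embryonic library (1.49 to 1.64, adjusted p = 0.0671 to 0.0833) and under total-count scaling (0.64, adjusted p = 0.168).

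Squalene epoxidase, Sqle, which commits squalene to sterols, was at 148 and 147 CPM at E13, 115 and 137 at E15, 25.8 and 180.0 in normoxia, and 368 and 436 in hypoxia. Both hypoxic libraries lay above all others, and the normoxic ones lay on either side of the embryo. Its log2 fold change in hypoxia against the embryo was 1.56 (SE 0.66, adjusted p = 0.134), and it was called higher in 5 of 16 alternatives: by DESeq2, by limma-voom, without either normoxic library, and in a fit of the embryonic and hypoxic libraries alone. In normoxia it stood at -0.41 (adjusted p = 0.727) and was called lower without normoxic replicate 2 (-2.40, adjusted p = 0.0146). Lss, which closes the ring to lanosterol, was at 63.5 and 66.3 CPM at E13, 35.6 and 54.6 at E15, 9.37 and 31.97 in normoxia, and 0 and 2.07 in hypoxia. The groups were ordered without overlap, embryo above normoxia above hypoxia, with log2 fold changes against the embryo of -1.39 (SE 1.60, adjusted p = 0.588) and -5.71 (SE 2.06, adjusted p = 0.0912). In hypoxia Lss was called lower by DESeq2 (-5.40, adjusted p = 0.00134) and without hypoxic replicate 1 (-4.70, adjusted p = 0.0254), and also without replicate 2, where the library left has 0 counts and the fitted size is not interpretable. Lss overlaps 4930483K19Rik on the other strand, and the strand setting of the counting is not stated.

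Tm7sf2, a sterol reductase, was at 10.9 and 7.41 CPM at E13, 12.1 and 13.7 at E15, 0.667 and 9.39 in normoxia and 32.1 and 13.1 in hypoxia. Nsdhl, a dehydrogenase of the same demethylation steps as Msmo1, was at 32.1 and 26.3 CPM at E13, 25.5 and 24.1 at E15, 0.064 (2 counts) and 12.6 in normoxia, and 28.2 and 33.6 in hypoxia. Both were lowest in normoxic replicate 1, and for both the hypoxic libraries lay above the normoxic ones. Neither was called against the embryo with all 8 libraries, with log2 fold changes of -1.11 and 1.06 for Tm7sf2 and -2.09 and 0.20 for Nsdhl in normoxia and hypoxia. Without normoxic replicate 2, which leaves the normoxic library with 2 counts, Nsdhl was called lower in normoxia (-8.67, adjusted p = 0.00924).

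The remaining sterol genes were not called against the embryo by edgeR with all 8 libraries, and P12 replicates of most lay far apart. Cyp51, the demethylase of lanosterol, was at 96.2 to 134 CPM in the embryo and 128 and 79.3 in normoxia, and at 94.7 and 1.07 in hypoxia. Hsd17b7, a keto-sterol reductase, was at 29.9 to 45.2 CPM in the embryo, 10.3 and 72.1 in normoxia, and 54.6 and 0.296 in hypoxia. Ebp, a sterol isomerase, was at 8.49 to 14.02 CPM in the embryo, 12.8 and 5.08 in normoxia, and 26.9 and 0 in hypoxia. Hypoxic replicate 2 was thus the low library for all of these. Dhcr7 showed the widest gap between replicates of any member, 161 CPM in hypoxic replicate 1 and 0.370 CPM (10 counts) in replicate 2, against 31.4 to 37.9 CPM in the embryo and 32.8 and 4.11 in normoxia. Without hypoxic replicate 1, all of these 4 were called lower in hypoxia against the embryo: Cyp51 (-6.71, adjusted p = 0.00243), Hsd17b7 (-6.91, adjusted p = 0.032), Dhcr7 (-6.52, adjusted p = 0.0451) and Ebp, which had 0 counts in the library left (adjusted p = 0.00718). Without hypoxic replicate 2, none of the 4 was called, and the log2 fold changes of Hsd17b7, Ebp and Dhcr7 were positive. Fdft1, which makes squalene, was at 96.3 to 142 CPM in the embryo, 100.3 and 28.8 in normoxia, and 50.9 and 97.4 in hypoxia. Its groups overlapped in both comparisons with the embryo.

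Among the SREBP regulators, Insig1, the sterol-dependent brake of the system (chr5:28071363-28078662 in GRCm38), was the member that rose. It was at 71.7 and 60.6 CPM at E13, 57.2 and 63.3 at E15, 699 and 339 in normoxia, and 441 and 1084 in hypoxia. All P12 libraries were above all embryonic ones, and the P12 groups overlapped. Insig1 rose by 3.04 in log2 in normoxia (SE 0.43, adjusted p = 0.00823) and by 3.59 in hypoxia (SE 0.44, adjusted p = 0.00369). The hypoxic call held in 16 of 16 alternatives (2.79 without hypoxic replicate 2) and the normoxic one in 11. That one was lost without normoxic replicate 1 (2.29, adjusted p = 0.067) and without any 1 embryonic library (2.97 to 3.10, adjusted p = 0.0529 to 0.0587).

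The transcription factors themselves shifted little against the spread. Srebf2, the SREBP gene tied most closely to cholesterol synthesis, was at 91.6 to 117 CPM in the embryo, 94.4 and 137 in normoxia, and 121 and 81.0 in hypoxia, with log2 fold changes of 0.15 (SE 0.32) and -0.05 (SE 0.33). Srebf1, tied more closely to fatty acid synthesis, was at 33.0 to 60.1 CPM in the embryo, 67.6 and 70.8 in normoxia, and 68.3 and 32.03 in hypoxia. Both normoxic libraries lay above the embryo for Srebf1, but the difference of 0.64 in log2 (SE 0.42) missed the threshold (adjusted p = 0.333). Scap was at 22.1 to 33.6 CPM in the embryo and 26.4 and 32.6 in normoxia, and at 0.908 and 55.6 in hypoxia, on either side of all other libraries. Scap was called lower in hypoxia against the embryo without replicate 2 (-5.06, adjusted p = 0.00676), where only the low library is left.

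Of the liver X receptor and transport genes, the exporter Abcg1 (chr17:31057675-31117988 in GRCm38) had the largest called rise of all members. It was at 9.18 and 13.8 CPM at E13, 6.66 and 6.06 at E15, 1830.0 and 830.3 in normoxia, and 525 and 1527 in hypoxia. All P12 libraries lay far above the embryo, and the P12 groups overlapped. The log2 fold change was 7.28 (SE 0.57, adjusted p = 0.001) in normoxia and 6.91 (SE 0.56, adjusted p = 0.00103) in hypoxia, each called in 16 of 16 alternatives. It was 6.46 without normoxic replicate 1 and 5.92 without hypoxic replicate 2.

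Abca1, the exporter that loads lipoproteins, was at 2.16 and 4.01 CPM at E13, 17.2 and 22.9 at E15, 379.7 and 129 in normoxia and 138 and 2.18 in hypoxia. The normoxic libraries lay above the embryo, and hypoxic replicate 2 lay within it. Its log2 fold change in normoxia was 5.01 (SE 1.34) and missed the threshold (adjusted p = 0.0531, called in 7 of 16 alternatives); in hypoxia it was 3.15 (SE 1.28, adjusted p = 0.12), called by DESeq2 and without hypoxic replicate 2 (4.12, adjusted p = 0.013), and it was -1.84 without hypoxic replicate 1. Nr1h3, the receptor LXR alpha, had 0 to 1.16 CPM in the embryo, 23.5 and 11.3 in normoxia, and 37.2 and 0.074 (2 counts) in hypoxia; edgeR did not call it, with log2 fold changes of 5.12 (SE 2.29) and 5.22 (SE 2.30). DESeq2 called it higher in both groups (adjusted p = 0.0404 and 0.0277), and without hypoxic replicate 1 the hypoxic value was -2.70. Nr1h3 overlaps Gm13783 on the same strand.

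Nr1h2, the receptor LXR beta, was at 50.7 and 47.01 CPM at E13, 58.1 and 56.5 at E15, 84.9 and 80.6 in normoxia, and 129 and 114 in hypoxia. Its replicates were close in every group, and the groups were ordered without overlap, embryo below normoxia below hypoxia. Nr1h2 rose by 1.20 in hypoxia against the embryo (log2, SE 0.27, adjusted p = 0.0277), in 9 of 16 alternatives, and stood at 0.65 in normoxia (SE 0.28, adjusted p = 0.165). The hypoxic call was lost without any 1 embryonic library (adjusted p = 0.144 to 0.156), and under total-count scaling the log2 fold change was 0.28 (adjusted p = 0.525). A pseudogene, Nr1h2-ps, is annotated, so some of its reads may be shared.

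Stard4, which carries cholesterol between membranes, moved the other way. It was at 8.30 and 10.3 CPM at E13, 6.41 and 3.36 at E15, 4.38 and 21.3 in normoxia, and 0.034 (1 count) and 0.185 (5 counts) in hypoxia. Both hypoxic libraries lay below every other library, and normoxia lay on either side of the embryo. Stard4 fell by 5.92 in log2 in hypoxia against the embryo (SE 1.38, adjusted p = 0.0288) and stood at 0.93 in normoxia (SE 0.95, adjusted p = 0.539). The fall was called in 9 of 16 alternatives and not without hypoxic replicate 1 (-5.16, adjusted p = 0.0529) or any 1 embryonic library (adjusted p = 0.0955 to 0.109), and it was -7.55 without hypoxic replicate 2.

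In the fatty acid arm, Acly, which makes cytosolic acetyl-CoA for both pathways (chr11:100476353-100528000 in GRCm38), fell. It was at 751 and 838 CPM at E13, 769 and 827 at E15, 133 and 77.0 in normoxia, and 38.6 and 183 in hypoxia. All P12 libraries were below all embryonic ones, and the P12 groups overlapped. Acly fell by 2.92 in log2 in normoxia (SE 0.69, adjusted p = 0.0389) and by 2.85 in hypoxia (SE 0.69, adjusted p = 0.0317), in 9 and 8 of 16 alternatives. The normoxic call was lost on leaving out normoxic replicate 1 (-3.51, adjusted p = 0.129), normoxic replicate 2 (-2.58, adjusted p = 0.149) or any 1 embryonic library (adjusted p = 0.123 to 0.13). The hypoxic call was lost without normoxic replicate 1 (adjusted p = 0.0629) or any 1 embryonic library (0.0968 to 0.103); its value was -2.12 without hypoxic replicate 1 and -4.38 without hypoxic replicate 2.

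Per kilobase of exon, Acly had the highest mean of all members in the embryo, 151 CPM, followed by Scd2, a desaturase that puts the first double bond into fatty acids, with 135 CPM. In single libraries Acly ranged from 142 to 159 CPM per kilobase and Scd2 from 128 to 141, so the ranges of these neighbours did not overlap. At P12 the order changed: Sc5d led in both groups, and Acly had means of 19.9 and 21.0 CPM per kilobase against 118.5 and 233 for Scd2. Scd1, the related desaturase prominent in liver and fat, had means of 1.24 CPM per kilobase in the embryo, 0.871 in normoxia and 5.54 in hypoxia, far under Scd2 in each group; reads shared within the Scd family may be split between its members.

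Scd2 was at 701 and 723 CPM at E13, 769.9 and 762 at E15, 836 and 459 in normoxia, and 719 and 1831 in hypoxia. Hypoxic replicate 1 lay within the embryonic range and replicate 2 above it, the normoxic libraries lay on either side of it, and Scd2 was not called against the embryo with all 8 libraries (log2 fold changes of -0.19 and 0.79). Fasn, the synthase that builds palmitate, was at 113 to 146 CPM in the embryo, 95.8 and 107 in normoxia, and 68.8 and 324 in hypoxia. Acaca, which makes malonyl-CoA for Fasn, was at 9.62 to 21.2 CPM in the embryo, 48.9 and 6.91 in normoxia, and 22.3 and 39.4 in hypoxia. Scd1 was at 4.92 to 6.78 CPM in the embryo, 0.667 and 7.85 in normoxia, and 1.45 and 52.8 in hypoxia. Neither Fasn, Acaca nor Scd1 was called in either comparison with all 8 libraries. In hypoxia against the embryo the 2 hypoxic libraries gave opposite calls for Fasn, higher without replicate 1 (1.34, adjusted p = 0.00619) and lower without replicate 2 (-0.92, adjusted p = 0.041). Scd2 was called higher without replicate 1 (1.32, adjusted p = 0.0409) and stood at -0.05 without replicate 2.

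Hypoxia was then compared with normoxia at the same age, P12, to ask how these genes stood after the exposure, which had ended at P11. No member passed the test: 0 of 32 were called by edgeR's quasi-likelihood test, 2 of them at an unadjusted p under 0.05 (Msmo1 positive, Stard4 negative), against 3.02% of all tested genes called (602, with 3632 at an unadjusted p under 0.05). DESeq2 called 4 members, Idi1, Msmo1 and Nr1h2 higher and Stard4 lower, against 20% of all tested genes (3981), a share above the members' own, and limma-voom called 0 members and 0 genes of any kind, with 1699 genes at an unadjusted p under 0.05. A fit of the P12 libraries alone also called 0 members and 0 genes, with 1558 genes at an unadjusted p under 0.05. The main fit shares its spread with the embryonic libraries, where replicates differed less. Of the 32 fold changes in the main fit 21 were positive, with a median of 0.51. Over all tested genes 45.0% were positive and the median was 0. The hypoxic and normoxic values did not overlap in 9 members, 7 higher after hypoxia (Hmgcs1, Idi1, Sqle, Tm7sf2, Msmo1, Nsdhl and Nr1h2) and 2 lower (Lss and Stard4), against 13.1% and 20.1% of all tested genes. Of the 7 that were higher, 6 were enzymes of the mevalonate and sterol arms. The members' median was 0.10 without hypoxic replicate 2 and 0.88 without normoxic replicate 1, beside -0.16 and 0 over all genes tested there.

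**Figure D4:**
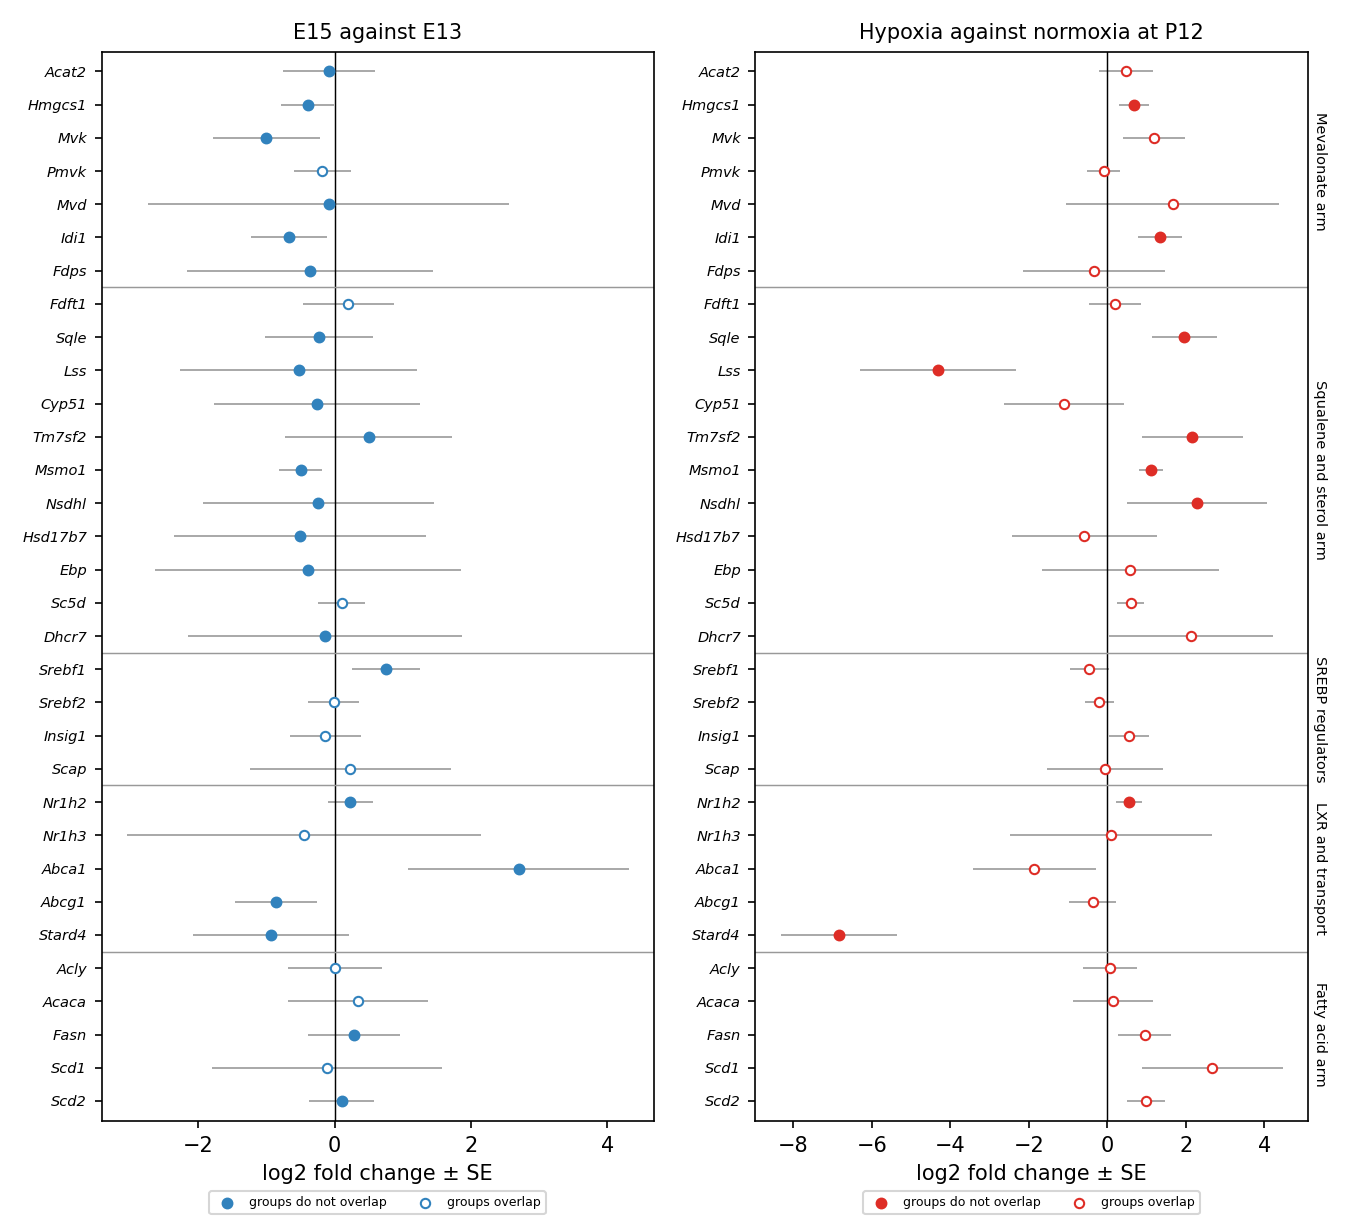
Log2 fold change with its SE for each member, E15 against E13 on the left and P12 hypoxia against P12 normoxia on the right; filled points are members whose groups do not overlap. None of the 32 passed an adjusted p of 0.05 in either comparison. In the left panel 14 enzymes of the mevalonate and sterol arms are filled left of 0, and Tm7sf2 right of 0. In the right panel 6 enzymes of these arms are filled right of 0, and Lss left of 0. Over all tested genes 25.8% were lower and 23.6% higher without overlap at E15, and 20.1% lower and 13.1% higher after hypoxia.

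Among these, the differences with the smallest SE were those of Msmo1 and Nr1h2. Msmo1 differed by 1.11 in log2 (SE 0.32, adjusted p = 0.162) and Nr1h2 by 0.55 (SE 0.33, adjusted p = 0.446). Hmgcs1 differed by 0.68 (SE 0.39, adjusted p = 0.424) and Idi1 by 1.33 (SE 0.56, adjusted p = 0.286). Sqle differed by 1.97 (SE 0.82, adjusted p = 0.284), and without normoxic replicate 2 it was called, at 3.96 (adjusted p = 0.0251). For Nsdhl the difference was 2.29 (SE 1.78, adjusted p = 0.6), called without normoxic replicate 2 at 8.87 (adjusted p = 0.0251), where only the normoxic library with 2 counts is left. For Tm7sf2 it was 2.17 (SE 1.28, adjusted p = 0.44). Idi1 was called without hypoxic replicate 2 (1.83, adjusted p = 0.0397). Over all genes 4.49% were called without normoxic replicate 2 and 7.75% without hypoxic replicate 2.

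The 2 members lower after hypoxia were at or near 0 there. Stard4 stood at -6.85 in log2 (SE 1.48, adjusted p = 0.0804), the smallest adjusted p of the 32, and ranged from -8.38 to -5.30 on leaving out 1 library. Lss stood at -4.32 (SE 1.99, adjusted p = 0.319) and was called without hypoxic replicate 2 (adjusted p = 0.0213), which leaves the hypoxic library with 0 counts. Beside these values, 14.8% and 14.5% of genes well counted in the embryo had 3 counts or fewer in the hypoxic libraries. Lss and Stard4 were among those genes in hypoxic replicate 1, while in replicate 2 they had 56 and 5 counts. The part that such loss plays in their differences was not tested.

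For the regulators and the fatty acid enzymes the P12 groups overlapped, apart from Nr1h2. Insig1 had the smallest p of the SREBP regulators, with a log2 difference of 0.55 (SE 0.52, adjusted p = 0.687) that turned to -0.26 without hypoxic replicate 2. Scd2 had the smallest p of the fatty acid enzymes, at 0.98 (SE 0.48, adjusted p = 0.349), and at 0.13 without hypoxic replicate 2. All 5 fatty acid fold changes were positive in this fit, 4 under total-count scaling and 1 without hypoxic replicate 2, the library with the highest Fasn, Scd1 and Scd2. Without hypoxic replicate 1, 4 members were called, against 13.5% of all genes: Fasn was higher (1.79, adjusted p = 0.00998), and Abca1 (-6.77, adjusted p = 0.0248), Cyp51 (-6.49, adjusted p = 0.00758) and Ebp (adjusted p = 0.0164) were lower, Ebp with 0 counts in the hypoxic library left. Without hypoxic replicate 2, Scap was called lower (-5.00, adjusted p = 0.0195). Summed oligodendrocyte progenitor markers were higher in both hypoxic libraries than in the normoxic ones, at 990.3 to 1704 CPM against 385 to 502 CPM. The markers did not all move together. Pdgfra, Olig1, Olig2, Gpr17, Neu4 and Lhfpl3 were each higher in both hypoxic libraries, while the groups overlapped for Cspg4 and Sox10. The part of these markers in the values above was not tested.

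Within the embryo, E15 was compared with E13 to see whether the pathway shifts over this stage. No gene of any kind was called (0 of 19936, 0% of those tested, with 690 at an unadjusted p under 0.05; DESeq2 called 373 and limma-voom 935), and of the members 0 were called and 0 had an unadjusted p under 0.05. In 16 of the 32 members both E15 values lay below both E13 values, against 25.8% of all tested genes, and in 6 they lay above, against 23.6%. The lower ones included 6 of 7 mevalonate genes and 8 of 11 sterol genes, and all 7 mevalonate fold changes were negative, with a median of -0.36 under TMM and -0.39 under total-count scaling. These shifts were small: the median member differed by -0.14 in log2, beside -0.002 over all tested genes.

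Mvk went from 15.6 and 18.5 CPM at E13 to 8.05 and 8.98 at E15, a log2 difference of -1.002 (SE 0.79), and Idi1 differed by -0.66 (SE 0.56). For Msmo1 the difference was -0.50 (SE 0.31), and for Hmgcs1 -0.39 (SE 0.39). The SEs come from a spread shared with the P12 libraries, where replicates differed more. Higher at E15 without overlap were Tm7sf2, Srebf1, Nr1h2, Abca1, Fasn and Scd2. Abca1 differed by 2.70 (SE 1.62) and Srebf1 by 0.75 (SE 0.50), the latter called by limma-voom alone (adjusted p = 0.0455), and Fasn by 0.28 (SE 0.67). Abcg1, the other exporter, was lower at E15, with a log2 difference of -0.85 (SE 0.60).

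A wider list of 51 genes of lipid synthesis, uptake, storage and export that are not in the set, 50 of them tested, gave 16 called higher and 1 lower in normoxia against the embryo and 22 higher and 4 lower in hypoxia. Over all tested genes 12.1% were called higher and 5.68% lower in normoxia, and 13.2% and 12.9% in hypoxia. The list was chosen with earlier results of these data known, so these shares are only set side by side. The part that cell make-up plays in them was not tested. Among those of smallest p was Thrsp, a nuclear protein tied to lipogenesis, which was at 0.446 to 2.93 CPM in the embryo, 800.3 and 653.8 in normoxia, and 808 and 395 in hypoxia. It rose by 9.35 (SE 0.38) and 9.07 (SE 0.38) in log2. Soat1, which esterifies cholesterol for storage, rose by 4.67 and 5.66, from 17.9 to 25.4 CPM in the embryo to 617 and 520.4 in normoxia and 775 and 1478 in hypoxia. Degs1, a desaturase of sphingolipid synthesis, rose by 3.59 and 2.996, and Acsl3, which activates long-chain fatty acids, by 3.04 and 3.27. The calls for these genes held in 16 of 16 alternatives. Osbp, an oxysterol-binding carrier of sterols, was the gene called lower in both groups. It was at 65.7 to 90.6 CPM in the embryo, 0.191 and 0.358 in normoxia, and 1.28 and 0.296 in hypoxia. Its P12 values were thus near 0. In the P12 libraries 5.10% to 14.8% of genes well counted in the embryo had 3 counts or fewer. The part that such loss plays in the fall of Osbp was not tested.

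Between hypoxia and normoxia 0 of these 50 were called higher and 2 lower, the lipid transporters Abca2 and Abca7, against 0.196% and 2.82% of all tested genes. Abca2, a transporter prominent in oligodendrocytes, was at 17.2 and 20.8 CPM in normoxia and 0.673 and 0.887 in hypoxia, against 15.8 to 31.6 in the embryo. Abca7 was at 10.96 and 19.3 CPM in normoxia and 0.034 and 0.222 in hypoxia, against 29.8 to 35.6 in the embryo. Both hypoxic libraries lay below all others for both genes. Abca7 was near 0 in hypoxia, where 14.8% and 14.5% of genes well counted in the embryo had 3 counts or fewer. The part that such loss plays in these values was not tested. Abca2 fell by 4.60 in log2 (SE 0.71, adjusted p = 0.0349, called in 8 of 16 alternatives). Abca7 fell by 6.87 (SE 1.15, adjusted p = 0.0422, called in 5 of 16). These SEs come from a spread shared with the embryonic libraries, where replicates differed less. Limma-voom and a fit of the P12 libraries alone each called 0 genes, so neither called Abca2 or Abca7. Both calls were lost on leaving out any 1 embryonic library (adjusted p of at most 0.19 for Abca2 and 0.187 for Abca7). The call for Abca7 was also lost without normoxic replicate 1 (adjusted p = 0.0561) or replicate 2 (0.0584), and its log2 difference was -5.96 without hypoxic replicate 1 and -8.66 without hypoxic replicate 2.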

How the data were processed

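RNA sequencing counts of 8 libraries of sorted mouse brain cells, 2 per group, were analysed. Each deposited file holds raw counts per gene symbol for 1 library. Per the labels' protocols, 400 pg of total RNA entered each library. Per the submitters' processing notes, cutadapt, STAR and Subread were used with GRCm38; versions, annotation, strand setting and the handling of multiply mapped reads are not given in the sources used here. Of 55487 rows per file 1980 named no gene; these held 0.205% to 0.266% of counts and were left out. Coordinates and exon lengths came from GENCODE M21, which matched 96.6% of the gene rows. Totals were 36252027 to 47084796 counts, and a count of 0 allows up to 3 counts, or 0.0637 to 0.0828 CPM before scaling, for counting error only.

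Counts were fitted with edgeR 4.0.16 (R 4.3.3) after TMM scaling and filterByExpr (minimum count 10, minimum total 15): 19936 genes, 4 groups in 1 quasi-likelihood fit of 8 libraries with 4 residual degrees of freedom, two-sided tests, Benjamini-Hochberg adjustment over all tested genes, threshold 0.05. Each SE follows from the F statistic and the fitted log2 fold change. The pipeline was tested on simulated counts. The 16 alternatives were DESeq2 1.42.0, limma-voom (limma 3.58.1) with sample weights, relative log expression scaling, total-count scaling (chosen after seeing the data), no low-count filter, at least 5 CPM in 2 libraries, a replicate block, only the compared groups, and leaving out each library. Tables and figures were made with Python 3.11.15, pandas 2.3.3 and matplotlib 3.10.9.

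All 32 members are named, with every library's value for those called in a comparison, those whose hypoxic and normoxic values do not overlap, and the one of smallest p per role in the hypoxia comparison. Of the wider list up to 4 called genes of smallest p are named per comparison; Osbp was added after its values were seen. Members and lists were chosen with earlier results of these data known. Not every gene so chosen is described.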

Additional observations from a re-analysis of the deposited data

How the results depend on the processing

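Over all 32 members, 4 comparisons and 16 alternatives there were 2048 values: 1835 kept their direction and their side of the threshold, 59 called ones missed it, 43 passed it that had not, and 111 changed sign. Of the sign changes 107 were not called in either analysis and 4 were called in the alternative, namely Fasn, Dhcr7 and Ebp in hypoxia against the embryo and Ebp in hypoxia against normoxia. Pmvk, Sc5d and Abcg1 against the embryo were called in all 16 alternatives in both P12 groups. With 2 libraries per group and P12 replicates far apart, smaller shifts could not be told from replicate spread, and the causes of the differences between settings were not tested.

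With DESeq2, 4 members were called in hypoxia against normoxia (0 by edgeR) and 9 in normoxia against the embryo (5 by edgeR). Over all genes DESeq2 called 3981 in hypoxia against normoxia (602 by edgeR), 373 in E15 against E13 (0), 7252 in normoxia against the embryo (3541) and 9001 in hypoxia against the embryo (5208). limma-voom called 1 member and 935 genes in E15 against E13, 0 genes in hypoxia against normoxia and 2390 in hypoxia against the embryo. Without a low-count filter 295 genes were called in hypoxia against normoxia. On only the compared groups the genes called were 0 in hypoxia against normoxia, 229 in E15 against E13 and 6731 in normoxia against the embryo. Total-count scaling left 6 members called in hypoxia against the embryo.

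Deviations of libraries with equal replicate numbers did not correlate (-0.039 to 0.008 over 6 pairs of groups), which gives no sign that the numbers pair the samples. With 2 libraries per group this check cannot exclude a shared animal, litter or day. A replicate block left 5 members called in hypoxia against the embryo and 4 in normoxia, and 1 gene called in hypoxia against normoxia, 1705 in normoxia against the embryo and 2868 in hypoxia against the embryo.

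Leaving out each library in turn, members called ranged from 0 to 4 in hypoxia against normoxia, from 3 to 6 in normoxia against the embryo and from 4 to 16 in hypoxia against the embryo. The corresponding counts over all genes were 0 to 3018, 928 to 5990 and 1562 to 6836; a group left with 1 library is assumed to vary like the others.

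The sign changes that follow are those of members whose fold change is given or was called in some setting. On leaving out 1 library, the log2 difference between hypoxia and normoxia changed sign for Pmvk (-0.65 to 0.58), Ebp (-11.61 to 1.55), Insig1 (-0.26 to 1.42), Scap (-5.00 to 1.02) and Fasn (-0.54 to 1.79). In normoxia against the embryo it changed for Sqle (-2.40 to 0.26), Srebf2 (-0.15 to 0.25), Stard4 (-0.62 to 1.52) and Scd2 (-0.82 to 0.18). In hypoxia against the embryo it changed for Hsd17b7 (-6.91 to 0.58), Ebp (-12.03 to 1.24), Dhcr7 (-6.52 to 2.22), Srebf2 (-0.37 to 0.19), Scap (-5.06 to 0.89), Nr1h3 (-2.70 to 9.03), Abca1 (-1.84 to 4.12), Fasn (-0.92 to 1.34) and Scd2 (-0.053 to 1.31). The lowest values of Ebp come from a library with 0 counts and have no interpretable size.

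In the other settings no value that changed sign was called. Between hypoxia and normoxia, Pmvk was at 0.11 with DESeq2 and with relative log expression scaling, Scap at 0.23 with both, 0.033 without a low-count filter and 0.02 on only the compared groups, and Ebp at -3.17 with limma-voom. Under total-count scaling, which moves all genes down, normoxia against the embryo gave -0.23 for Hmgcs1, -0.41 for Idi1, -0.36 for Msmo1, -0.18 for Srebf1, -0.65 for Srebf2 and -0.18 for Nr1h2, and hypoxia against the embryo -0.74 for Nsdhl, -0.52 for Ebp, -0.42 for Fasn and -0.20 for Scd2. In hypoxia against the embryo, Ebp was at -3.63 and Dhcr7 at -1.82 with limma-voom and at -0.59 and -0.19 with a replicate block. Srebf2 was at 0.14 and Scap at 0.21 there with DESeq2 and with relative log expression scaling, and at 0.025 and 0.084 on only the compared groups.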
